A study of Mus musculus with 6 samples.

Results

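Potassium channel genes were examined in poly(A) RNA from mouse hearts. Every gene whose symbol begins with Kcn was taken from the deposited tables, which gave 87 of the 29385 genes listed. No symbol had to be left out as a predicted gene or pseudogene, and all 87 had 1 match in the GENCODE M21 annotation. The filter on low values kept 56 of them and left 31 without a test.

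Hearts were compared between 3 groups with 2 libraries each. Every mouse carried altered alleles of Myh6, the gene of the alpha myosin heavy chain, which drives contraction of the adult mouse heart. The first group had the genotype Myh6RH/+ and received vehicle, the second had Myh6RH/RQ and received vehicle, and the third had Myh6RH/RQ and received AAV-hpCas13d. Cas13d is a nuclease that cuts RNA under the direction of a guide RNA, and AAV is a viral vector used to carry genes into tissue. The treatment was given to newborn mice and the organ was taken 12 months later. The labels do not spell out the RH and RQ alleles, name the RNA target, the promoter that drives the nuclease, or the sex of the animals. All 3 groups carried the RH allele, so none of them is a wild-type heart. The groups are called RH/+ vehicle, RH/RQ vehicle and treated RH/RQ below.

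Potassium channels let potassium ions leave or enter the heart muscle cell and so shape its resting potential and the return of the action potential to rest. The Kcna, Kcnb, Kcnc, Kcnd, Kcnq and Kcnh genes encode pore subunits that open on depolarisation, the Kcnj genes encode inward rectifiers, and the Kcnk genes encode tandem-pore background channels. Kcne, Kcnip, Kcnab and Kcnmb genes encode auxiliary subunits that set the surface level, speed or voltage range of a pore. In the mouse ventricle the fast transient outward current from Kcnd pores and Kcnip2 carries much of the repolarisation, together with slower currents such as that from Kcna5.

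Values are in CPM, the share of a library's gene reads that fell in a gene, and libraries held between 36269261 and 51017058 reads. Levels in CPM are listed in the order RH/+ vehicle 1 and 2, RH/RQ vehicle 1 and 2, and treated RH/RQ 1 and 2. Differences are on the log2(CPM + 1) scale with the standard error (SE), which understates the change of low genes. A gene was called at a limma p-value under 0.05 after Benjamini-Hochberg adjustment over all 16804 genes tested. Nothing in the labels ties the libraries to individual mice, so the tests reflect the spread between libraries, which may be technical. Myh6, whose reads from both alleles are in 1 count, was at 14786, 18251, 15066, 17720, 14297 and 15258 CPM and was called in none of the 3 comparisons. Heart muscle and ventricular marker genes were high in every library, and 0 of 7 and 0 of 3 were called in any comparison. Of the atrial markers Sln was at 0 in the 4 vehicle libraries and at or under 0.11 CPM in the treated ones, and Myl7 was at or under 0.696 CPM throughout.

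The groups differed in more than genotype and treatment. Xist, the X-inactivation RNA of female cells, was at 280 and 265 CPM in RH/+ vehicle, 0.274 and 0.0516 CPM in RH/RQ vehicle, and 299 and 326 CPM in treated RH/RQ libraries. Y-linked genes were abundant in RH/RQ vehicle alone. In the 2 comparisons that include the RH/RQ vehicle group, genotype or treatment and sex cannot be told apart, and this holds for every gene below. Treated RH/RQ and RH/+ vehicle hearts had the same sex-linked pattern but differed in both genotype and treatment, so no comparison sets treatment apart. The summed level of 5 fibroblast markers was 747 to 793 CPM in RH/+ vehicle, 1144 to 1258 CPM in RH/RQ vehicle and 1108 to 1297 CPM in treated RH/RQ libraries. The summed level of 5 macrophage markers was 105 CPM in both RH/+ vehicle libraries, 137 to 140 CPM in RH/RQ vehicle and 110 to 128 CPM in treated RH/RQ libraries. The 8 smooth muscle and mural cell markers summed to 1011 to 1016, 865 to 886 and 817 to 884 CPM in the same order. Of these sums Acta2 alone took 216, 84.7 and 74.8 CPM on average. The 4 erythroid genes summed to 249 to 299 CPM in RH/+ vehicle, 228 to 345 CPM in RH/RQ vehicle and 157 to 181 CPM in treated RH/RQ libraries, and limma called 3 of them lower in treated than in vehicle RH/RQ hearts and all 4 lower than in RH/+ vehicle. Their part in the results below was not tested, and in bulk tissue fewer cells of a type and less RNA per cell cannot be told apart.

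The DNA just upstream of 5 of the Kcn genes that passed the test is shown because these genes moved in different directions and patterns: Kcnip2 and Kcnn3 were lower in RH/RQ vehicle than in RH/+ vehicle hearts, Kcnc1 and Kcnk2 were higher, and Kcna5 was higher in treated hearts. Each line holds the 250 bases before the RefSeq start site on GRCm38.p6, from 5′ to 3′ on the strand of the gene. They lie at chr19:45816064-45816313 (minus strand, Kcnip2), chr3:89519914-89520163 (plus strand, Kcnn3), chr7:46396218-46396467 (plus strand, Kcnc1), chr1:189402274-189402523 (minus strand, Kcnk2) and chr6:126535556-126535805 (minus strand, Kcna5). Capitals mark matches to the motifs searched on both strands, which are named after the sequences.
Kcnip2: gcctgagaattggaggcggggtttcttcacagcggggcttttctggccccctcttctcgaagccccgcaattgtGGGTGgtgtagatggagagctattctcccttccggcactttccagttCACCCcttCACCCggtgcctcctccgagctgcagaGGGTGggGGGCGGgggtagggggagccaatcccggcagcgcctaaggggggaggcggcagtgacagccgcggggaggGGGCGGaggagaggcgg
Kcnn3: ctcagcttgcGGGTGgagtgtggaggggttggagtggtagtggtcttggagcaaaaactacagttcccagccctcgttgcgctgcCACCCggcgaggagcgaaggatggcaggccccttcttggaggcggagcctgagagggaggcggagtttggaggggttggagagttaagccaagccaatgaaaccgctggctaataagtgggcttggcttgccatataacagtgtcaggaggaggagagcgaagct
Kcnc1: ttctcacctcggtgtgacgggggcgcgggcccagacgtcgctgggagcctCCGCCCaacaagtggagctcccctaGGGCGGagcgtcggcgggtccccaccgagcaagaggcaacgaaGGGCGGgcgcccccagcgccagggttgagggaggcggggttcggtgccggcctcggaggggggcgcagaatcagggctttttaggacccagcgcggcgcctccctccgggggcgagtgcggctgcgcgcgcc
Kcnk2: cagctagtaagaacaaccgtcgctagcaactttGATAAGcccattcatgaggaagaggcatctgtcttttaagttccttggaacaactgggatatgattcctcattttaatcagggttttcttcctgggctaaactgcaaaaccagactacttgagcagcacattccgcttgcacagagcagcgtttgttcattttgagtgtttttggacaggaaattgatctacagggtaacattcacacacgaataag
Kcna5: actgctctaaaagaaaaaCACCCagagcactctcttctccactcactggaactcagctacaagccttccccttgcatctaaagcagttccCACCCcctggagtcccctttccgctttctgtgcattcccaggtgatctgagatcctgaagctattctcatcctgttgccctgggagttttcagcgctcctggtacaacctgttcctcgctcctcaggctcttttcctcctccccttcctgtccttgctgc

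The motifs searched were the GC box GGGCGG, the CACCC box CACCC, the E-box CACGTG, the TATA box TATAAA, the AP-1 site TGANTCA, the cyclic AMP response element TGACGTCA and the GATA site GATAAG. No letters of one motif contain another in full. GC boxes and CACCC boxes are the letters that zinc finger factors of the Sp and Klf families are known to bind. The Kcnip2 window held 2 GC boxes and 4 CACCC boxes, and its GC content was 66.8%. The Kcnc1 window held 3 GC boxes at a GC content of 74.4%, the highest of the 5. Kcnn3 and Kcna5 had 2 CACCC boxes each, at 58.8% and 53.2% GC. Kcnk2 had 1 GATA site and the lowest GC content, 42.4%. Over all 32851 RefSeq windows of this length the median GC content was 52.4%, and over the 83 windows of 62 Kcn genes it was 58.8%. A CACCC box was present in 52.0% of all windows and 73.5% of the Kcn windows, and a GC box in 32.7% and 44.6%. The E-box was in 6.02% and 7.23%, the AP-1 site in 6.75% and 4.82%, and the GATA site in 6.55% and 8.43%. The TATA box was in 12.4% of all windows and in 2 of the 83 Kcn windows. The cyclic AMP response element was in 1.55% of all windows and 0 of the Kcn windows. These matches are descriptions of the letters and not sites of binding.

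Together the 87 genes took 1286 and 1406 CPM in RH/+ vehicle, 1160 and 1192 CPM in RH/RQ vehicle, and 1310 and 1227 CPM in treated RH/RQ libraries. Most of this RNA came from few genes, since the 15 highest members held 90.3% of the Kcn reads. The 14 inward rectifier genes took 32.2% of the reads on average, the 11 tandem-pore genes 20.1%, the 16 pore genes of the Kcna to Kcnd families 12.0% and the 14 auxiliary subunit genes 12.0%. The 7 modulatory genes, whose subunits form no channel alone, took 11% and the 12 Kcnq and Kcnh genes 9.26%. The 8 genes grouped by symbol as ion-activated channels (Kcnma, Kcnn, Kcnt and Kcnu) took 2.97%, and 5 regulator or non-coding genes 0.542%. By mean level 18 members were above 10 CPM, 22 were from 1 to 10 CPM and 47 were under 1 CPM.

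Levels per length compare the genes with each other. Kcnk3, an acid-sensitive background channel, was the highest at 60.8 CPM per kb of annotated exon, and its lowest library was above the highest library of every other member. Kcnj11, the pore of the ATP-sensitive channel of heart muscle, followed at 43.4 CPM per kb, with Kcng2, a silent modulatory subunit, at 41.8 and Kcnip2 at 39.0. The ranges of Kcnj11, Kcng2 and Kcnip2 over the libraries overlapped, with Kcnj11 above Kcng2 in 5 of 6 libraries and Kcng2 above Kcnip2 in 4 of 6. A lower step held Kcnj8, the vascular ATP-sensitive pore, at 19.2, Kcnh2, the pore of the rapid delayed rectifier, at 15.6 and Kcnj5 at 15.1 CPM per kb. Kcnj3, Kcna5, Kcnj12, Kcnj2 and Kcnq1 lay between 10.4 and 8.24 CPM per kb with overlapping ranges. Kcnd2, at 4.46 CPM per kb, lay lower, with no library above 4.94 CPM per kb.

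**Figure D1:**
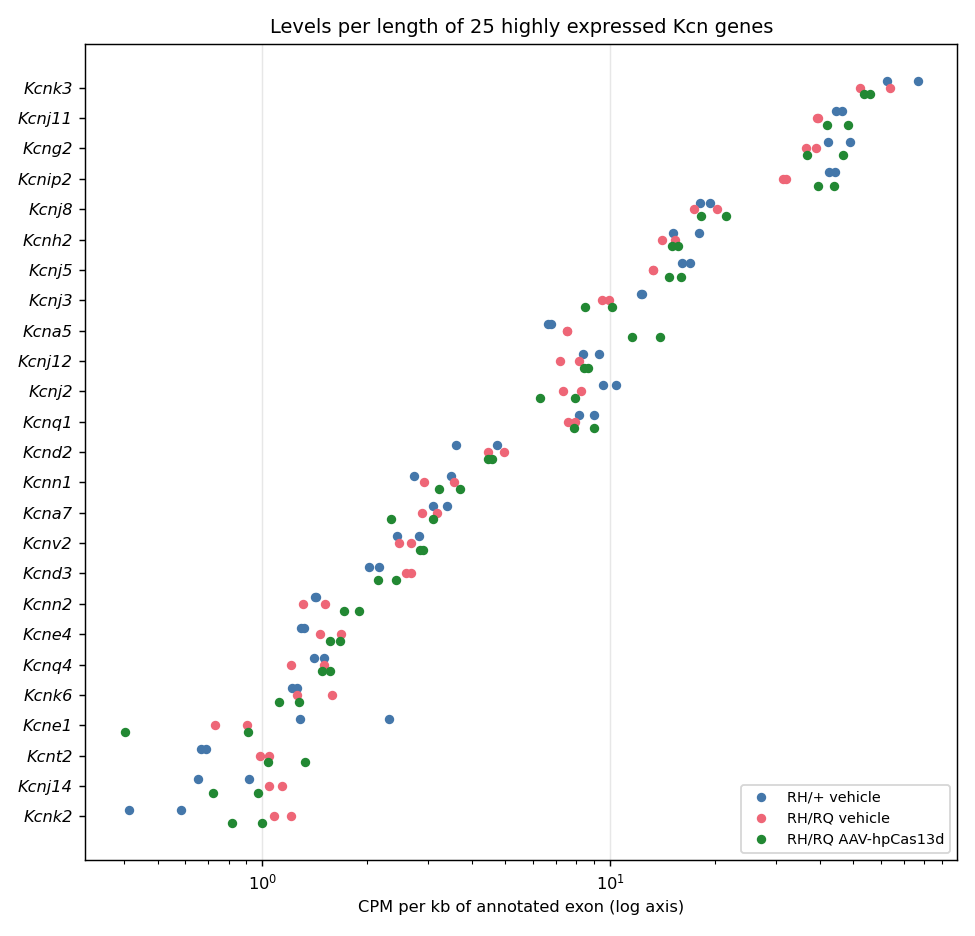
CPM per kb of annotated exon (log axis) for 25 highly expressed Kcn genes, with 1 point per library in the colour of its group. Kcnk3 stands apart at the top. All groups separate in Kcnk2 and Kcna5, while RH/+ vehicle alone stands apart in Kcne1 and RH/RQ vehicle alone in Kcnip2.

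RH/RQ vehicle hearts had 5 of the 56 tested Kcn genes called against RH/+ vehicle hearts. Kcnc1 and Kcnk2 rose, and Kcne1, Kcnip2 and Kcnn3 fell. Over all genes 4.99% were called in this comparison (3.48% higher and 1.51% lower). With edgeR and DESeq2 on the recovered reads the same 5 were called, as well as Kcnj2, Kcnj3 and Kcnj5, all lower, beside 5.46% and 5.64% of all genes. TMM scaling in limma gave the same 8, 2 higher and 6 lower, beside 3.14% higher and 2.4% lower of all genes. The extra falls were also called without TMM scaling when only the 4 libraries compared were fitted. The number of falls therefore depends on more than the scaling. Libraries of the groups did not overlap for 15 genes that were higher and 17 that were lower in RH/RQ vehicle, beside 30.8% and 18.5% of all genes. The median difference was 0.03 over the 56 Kcn genes and 0.04 over all genes.

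Treated RH/RQ hearts had 2 of 56 Kcn genes called against RH/RQ vehicle hearts, Kcna5 and Kcnip2, both higher. Over all genes 2.05% were called (1.22% higher and 0.827% lower). No Kcn gene was called lower by limma, edgeR or DESeq2, and 1, Kcnk1, was lower at an unadjusted p under 0.05 in limma, beside 3.92% of all genes. DESeq2 called the same 2 and edgeR only Kcna5, beside 2.2% and 2.27% of all genes. Libraries did not overlap for 11 genes that were higher and 8 that were lower, beside 26.2% and 14.4% of all genes. Against RH/+ vehicle, treated RH/RQ hearts had 7 of 56 called. Kcna5, Kcnc1, Kcnk2 and Kcnt2 rose, and Kcne1, Kcnj2 and Kcnj3 fell. Over all genes 2.86% were called there (2.33% higher and 0.53% lower), and libraries did not overlap for 14 higher and 9 lower Kcn genes beside 35% and 9.66% of all genes. With edgeR and DESeq2, which called Kcnk3 lower and did not call Kcnk2, there were also 7, beside 2.45% and 2.64% of all genes. With TMM scaling in limma 3 were higher and 5 lower, beside 1.41% and 0.976% of all genes. The 3 comparisons share libraries in pairs and are not independent of each other.

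**Figure D2:**
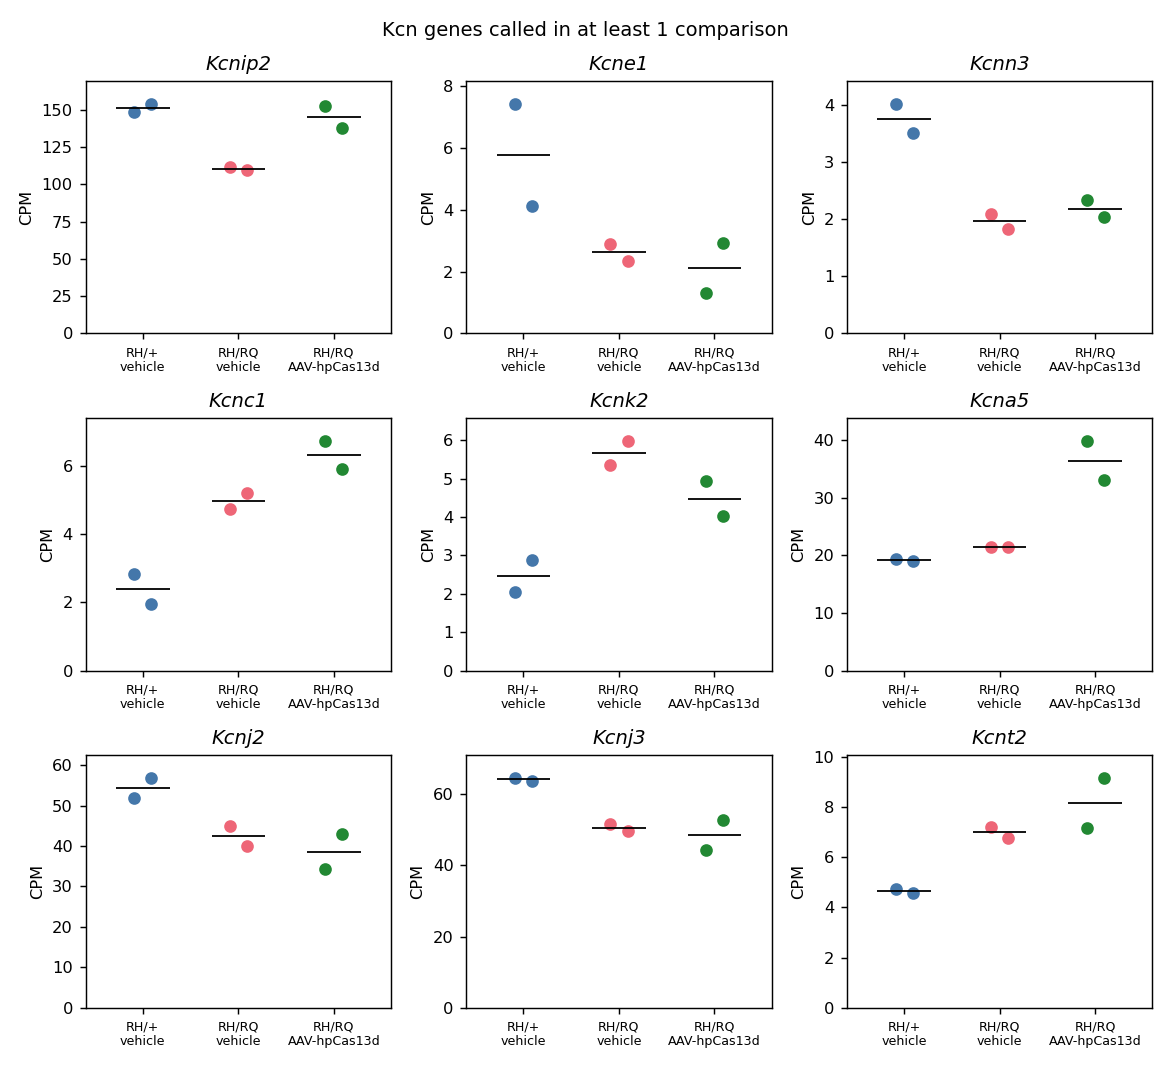
CPM of the 9 Kcn genes called in at least 1 comparison, with 1 point per library, a line at the mean of each group and axes from 0. Kcnip2 is lowest in RH/RQ vehicle, Kcna5 is highest in treated RH/RQ, and Kcne1, Kcnn3, Kcnj2 and Kcnj3 are highest in RH/+ vehicle.

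Of the 6 transient outward genes tested, 1 was called, and it is the auxiliary subunit of the fast current. Kcnip2 (chromosome 19, 45791839 to 45816061, minus strand) encodes a calcium-binding protein that brings Kcnd pores to the membrane. It was at 148 and 154 CPM in RH/+ vehicle, 112 and 109 CPM in RH/RQ vehicle and 153 and 138 CPM in treated RH/RQ libraries. Both RH/RQ vehicle libraries lay below all others, and the treated libraries overlapped the RH/+ ones. Kcnip2 fell by 0.45 in RH/RQ vehicle against RH/+ vehicle (SE 0.09, limma adjusted p = 0.00386) and rose by 0.39 in treated against vehicle RH/RQ hearts (SE 0.09, limma adjusted p = 0.0234). Treated RH/RQ and RH/+ vehicle differed by -0.06 (SE 0.09, limma adjusted p = 0.819). The fall lost its call without RH/+ vehicle replicate 2 (-0.42, limma adjusted p = 0.0652) or RH/RQ vehicle replicate 2 (-0.43, 0.0543). The rise lost its call with edgeR (adjusted p = 0.0929), with TMM factors (limma adjusted p = 0.0579) and with CPM over nuclear genes (0.0582). It was also lost without replicate 1 (0.40, limma adjusted p = 0.0996) or replicate 2 (0.37, 0.251) of RH/RQ vehicle, and without treated replicate 1 (0.32, 0.137).

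The pores that Kcnip2 joins were not called. Kcnd2 was at 24.4, 18.6, 22.9, 25.4, 22.9 and 23.6 CPM and Kcnd3 at 19.5, 20.7, 25.6, 24.9, 20.6 and 23.3 CPM. Kcnd3 was therefore above both RH/+ libraries in both RH/RQ vehicle libraries, with a difference of 0.32 (SE 0.12, limma adjusted p = 0.147), opposite in sign to Kcnip2. Per read of Kcnd2 and Kcnd3 together there were 3.38 and 3.92 Kcnip2 reads in RH/+ vehicle, 2.30 and 2.17 in RH/RQ vehicle and 3.50 and 2.94 in treated RH/RQ libraries. This ratio, like the others below, was chosen after values were seen and was not tested. Kcna4, the pore of the slow transient current, was between 1.02 and 1.90 CPM in the 6 libraries. Kcnab1, a cytoplasmic beta subunit, was between 0.576 and 1.57 CPM and Kcne3 between 0.1002 and 0.604 CPM, and neither was called.

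Of the 5 genes of the slower outward currents, 1 was called, and it was highest in treated RH/RQ hearts. Kcna5 (chromosome 6, 126532551 to 126535412, minus strand) encodes the pore of the ultrarapid delayed rectifier. Its level was 19.3 and 19.0 CPM in RH/+ vehicle, 21.5 and 21.5 CPM in RH/RQ vehicle and 39.8 and 33.1 CPM in treated RH/RQ libraries. Both treated libraries were above the 4 vehicle libraries. Kcna5 rose by 0.73 in treated against vehicle RH/RQ hearts (SE 0.12, limma adjusted p = 0.000773), a ratio of mean CPM of 1.69. It rose by 0.89 against RH/+ vehicle (SE 0.12, limma adjusted p = 6.84e-05), a ratio of 1.90. Those groups had the same sex-linked pattern but differed in genotype as well as treatment. Both calls held in 15 of 16 alternatives, including the removal of each library, and were lost when no filter on low values was used (limma adjusted p = 0.128 and 0.121). RH/RQ vehicle and RH/+ vehicle differed by 0.16 (SE 0.12, limma adjusted p = 0.544).

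Kcna5 is known to be abundant in atrial muscle, so atrial markers are given beside it. The atrial list summed to 120 to 155 CPM in RH/+ vehicle, 124 to 136 CPM in RH/RQ vehicle and 449 to 776 CPM in treated RH/RQ libraries. Most of this was Nppa, which was at 110, 143, 112, 117, 428 and 753 CPM and is also induced in stressed ventricle. Dkk3, also on the list, was at 8.03, 10.8, 10.8, 16.1, 18.7 and 21.1 CPM, and rose in treated RH/RQ against RH/+ vehicle hearts (1.01, SE 0.17, limma adjusted p = 0.000745). Myl4, the atrial myosin light chain on the list, was at 1.23 and 0.752 CPM in RH/+ vehicle, 1.04 and 2.47 CPM in RH/RQ vehicle and 2.01 and 1.90 CPM in treated RH/RQ libraries, with a difference of 0.58 in treated RH/RQ against RH/+ vehicle (SE 0.21, limma adjusted p = 0.169). The chamber-defining Myl7 and Sln were at 0.607 and 0.0791 CPM and at 0.11 and 0.0264 CPM in the treated libraries. Bmp10, the remaining gene on the list, was at 0.341, 0.125, 0.0392, 0.0773, 0.0551 and 0.0791 CPM. It was thus lower in both treated than in both RH/+ vehicle libraries, on few reads, and was not tested. Between the treated libraries Kcna5 was higher in replicate 1, whereas Nppa was higher in replicate 2.

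Kcng2 and Kcnv2, silent subunits that modify other pores, were not called by limma. Kcng2 was at 127, 147, 109, 117, 140 and 110 CPM, and Kcnv2 was between 12.5 and 14.8 CPM. In the authors' deposited table Kcng2 had a log2 fold change of -0.32 between RH/RQ vehicle and RH/+ vehicle at an adjusted p of 0.0316, while limma gave -0.27 (SE 0.11, adjusted p = 0.186). Kcna7 was between 5.12 and 7.42 CPM, Kcna2 between 2.27 and 4.45 CPM and Kcnab2 between 1.503 and 2.92 CPM, with no call.

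Kcnc1 (chromosome 7, 46396497 to 46438704, plus strand) encodes a fast-gating pore best known from neurons that fire at high rates. It was at 2.84 and 1.95 CPM in RH/+ vehicle, 4.72 and 5.21 CPM in RH/RQ vehicle and 6.73 and 5.91 CPM in treated RH/RQ libraries. The 3 groups did not overlap in this gene, and treated hearts were the highest. Kcnc1 rose by 0.82 in RH/RQ vehicle against RH/+ vehicle (SE 0.18, limma adjusted p = 0.00665), a ratio of mean CPM of 2.07. It rose by 1.12 in treated RH/RQ against RH/+ vehicle (SE 0.18, limma adjusted p = 0.000599), a ratio of 2.64. Treated and vehicle RH/RQ differed by 0.29 (SE 0.18, limma adjusted p = 0.545). The RH/RQ vehicle call was lost without RH/+ vehicle replicate 2 (0.64, limma adjusted p = 0.14) or RH/RQ vehicle replicate 2 (0.77, 0.0725), and the treated call held without each library in turn. The neuron and Schwann cell markers found summed to 10.05 to 10.5 CPM in RH/+ vehicle, 7.04 to 9.72 CPM in RH/RQ vehicle and 7.36 to 11.4 CPM in treated RH/RQ libraries, with 0 of 3 called. The related Kcnc2 and Kcnc4 did not exceed 0.580 CPM, and neither was called.

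In the slow delayed rectifier the auxiliary subunit fell and the pore was not called. Kcne1 (chromosome 16, 92345982 to 92359468, minus strand) encodes the small subunit that slows Kcnq1 channels. Its level was 7.43 and 4.13 CPM in RH/+ vehicle, 2.90 and 2.35 CPM in RH/RQ vehicle and 1.30 and 2.93 CPM in treated RH/RQ libraries. Both RH/+ libraries were above the other 4. In CPM, though not as a ratio, they differed from each other by more than any RH/RQ libraries did. Kcne1 fell by 0.86 in RH/RQ vehicle (SE 0.24, limma adjusted p = 0.0333) and by 1.13 in treated RH/RQ hearts (SE 0.24, limma adjusted p = 0.00729), each against RH/+ vehicle. Without RH/+ vehicle replicate 1 these became -0.51 (limma adjusted p = 0.5) and -0.77 (0.211). The RH/RQ vehicle call was also lost without either RH/RQ vehicle library (-0.98 and -0.75, limma adjusted p = 0.0558 and 0.187), and the treated call without treated replicate 1 (-0.74, 0.166).

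Kcnq1, the pore, was at 33.3, 36.8, 32.5, 30.9, 36.8 and 32.2 CPM, with differences between -0.14 and 0.11 in the 3 comparisons and no call. Reads of Kcnq1 and of the antisense Kcnq1ot1, at 4.23 to 6.33 CPM, cannot be separated without a stated strand setting. Per 100 Kcnq1 reads there were 22.3 and 11.2 Kcne1 reads in RH/+ vehicle, 8.93 and 7.59 in RH/RQ vehicle, and 3.53 and 9.10 in treated RH/RQ libraries. Kcnh2 was at 73.6, 87.5, 74.3, 68.5, 76.0 and 73.1 CPM, with no call. Kcne2, an auxiliary subunit described for Kcnh2, had 0 reads in 5 libraries and 5 reads in treated replicate 2, and 0 reads allow a level of up to 0.0588 to 0.0827 CPM. Hcn4, a pacemaker channel gene on the conduction marker list, was at 6.06, 6.96, 4.998, 4.18, 4.88 and 3.85 CPM, with no call. Of the other conduction markers Tbx3 was higher in RH/RQ vehicle than in RH/+ vehicle hearts (0.57, SE 0.12, limma adjusted p = 0.00595). It was lower in treated than in vehicle RH/RQ hearts (-0.78, SE 0.12, limma adjusted p = 0.000594). Cntn2, Gja5 and Shox2, also on this list, were called in none of the 3 comparisons. Their differences were -0.17, 0.12 and 0.06 in RH/RQ vehicle against RH/+ vehicle hearts. In treated against vehicle RH/RQ hearts they were -0.22, 0.02 and 0.31.

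**Figure D3:**
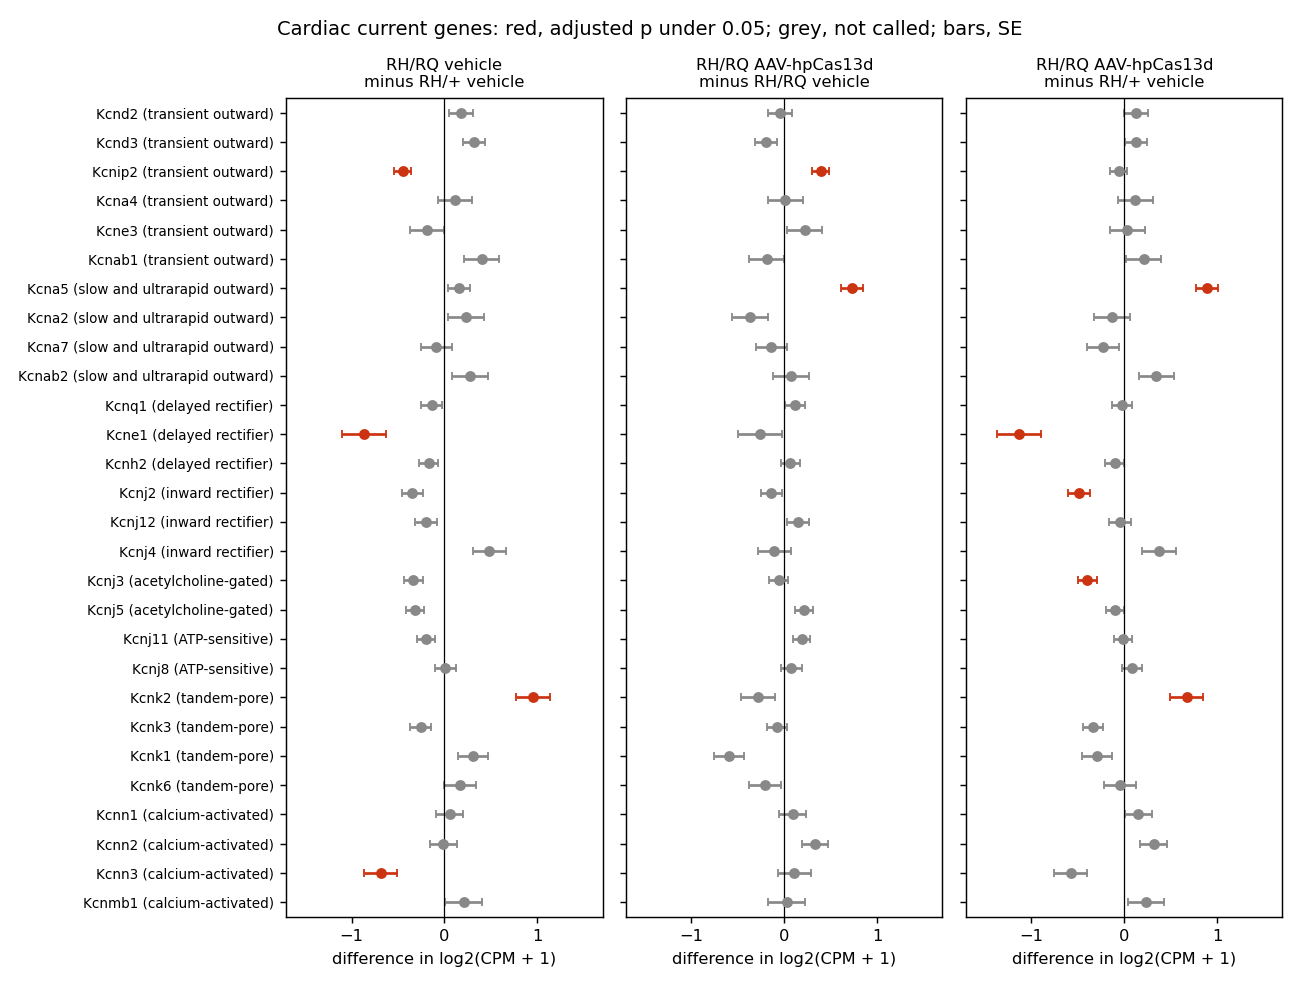
Difference in log2(CPM + 1) for tested cardiac current genes, with 1 panel per comparison, bars of 1 SE and red points for genes called by limma. In each current at most 1 gene is red in a panel, and most points lie within 0.5 of 0.

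The strong inward rectifier current that holds the resting potential comes from Kcnj2 and Kcnj12. Kcnj2 (chromosome 11, 111066164 to 111076821, plus strand) was at 51.8 and 56.8 CPM in RH/+ vehicle, 44.9 and 40.0 CPM in RH/RQ vehicle and 34.2 and 43.1 CPM in treated RH/RQ libraries. All 4 RH/RQ libraries were below both RH/+ libraries. Kcnj2 fell by 0.49 in treated RH/RQ against RH/+ vehicle hearts (SE 0.11, limma adjusted p = 0.0181), a ratio of mean CPM of 0.712. For RH/RQ vehicle against RH/+ vehicle the difference was -0.35 (SE 0.11, limma adjusted p = 0.0875), and edgeR called it at an adjusted p of 0.0385. The treated call was lost without RH/+ vehicle replicate 1 (-0.55, limma adjusted p = 0.0627), RH/+ vehicle replicate 2 (-0.42, 0.182) or treated replicate 1 (-0.33, 0.202). Kcnj12 was at 23.0, 25.6, 19.7, 22.5, 23.2 and 23.7 CPM, with no call. Kcnj2 reads per Kcnj12 read were 2.25, 2.22, 2.28, 1.78, 1.48 and 1.82, so RH/RQ vehicle overlapped both other groups. Kcnj4, a related pore, was between 0.727 and 1.88 CPM, with a difference of 0.48 in RH/RQ vehicle against RH/+ vehicle (SE 0.18, limma adjusted p = 0.14).

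Kcnj3 and Kcnj5 together form the channel that acetylcholine opens through G proteins, which slows the heart. Kcnj3 (chromosome 2, 55435970 to 55598145, plus strand) was at 64.5 and 63.8 CPM in RH/+ vehicle, 51.6 and 49.5 CPM in RH/RQ vehicle and 44.3 and 52.8 CPM in treated RH/RQ libraries. It fell by 0.40 in treated RH/RQ against RH/+ vehicle hearts (SE 0.10, limma adjusted p = 0.0334). The difference for RH/RQ vehicle was -0.34 (SE 0.10, limma adjusted p = 0.0629, edgeR adjusted p = 0.0302). The treated call was lost without RH/+ vehicle replicate 1 (-0.39, limma adjusted p = 0.277), RH/+ vehicle replicate 2 (-0.41, 0.164) or treated replicate 1 (-0.28, 0.248). Kcnj5 was at 75.5 and 79.4, 62.1 and 62.2, and 69.1 and 75.0 CPM, with both RH/RQ vehicle libraries the lowest. Its difference in RH/RQ vehicle against RH/+ vehicle was -0.31 (SE 0.10, limma adjusted p = 0.0588, edgeR adjusted p = 0.0328) and in treated against vehicle RH/RQ 0.21 (SE 0.10, limma adjusted p = 0.359). The ratio of the partners was lowest in the treated libraries. Kcnj3 reads per Kcnj5 read were 0.854, 0.803, 0.832 and 0.797 in the vehicle libraries and 0.640 and 0.704 in the treated ones.

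The ATP-sensitive channel, which opens when cell energy falls, pairs Kcnj11 or Kcnj8 pores with the sulfonylurea receptors Abcc8 and Abcc9. Kcnj11 was at 164, 171, 145, 146, 178 and 154 CPM and Kcnj8 at 46.1, 49.3, 51.8, 44.4, 55.0 and 46.6 CPM, and neither pore was called. Kcnj11 was lowest in both RH/RQ vehicle libraries, with differences of -0.20 against RH/+ vehicle (SE 0.09, limma adjusted p = 0.274) and 0.18 in treated against vehicle RH/RQ (SE 0.09, limma adjusted p = 0.439). Of the receptors, Abcc9 was at 363, 374, 278, 263, 321 and 392 CPM. It fell by 0.44 in RH/RQ vehicle against RH/+ vehicle hearts (SE 0.10, limma adjusted p = 0.00893) and rose by 0.39 in treated against vehicle RH/RQ hearts (SE 0.10, limma adjusted p = 0.0428). Abcc8 was at 45.7, 41.3, 37.1, 33.7, 50.3 and 47.4 CPM. It was higher by 0.45 in treated than in vehicle RH/RQ hearts (SE 0.11, limma adjusted p = 0.0205). Its difference between RH/RQ vehicle and RH/+ vehicle was -0.29 (SE 0.11, limma adjusted p = 0.13). Reads of Kcnj11 per Kcnj8 read lay between 2.80 and 3.56.

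Tandem-pore channels carry background current that holds the membrane near rest. Kcnk2 (chromosome 1, 189207930 to 189402273, minus strand) encodes a channel opened by stretch and lipids. It was at 2.05 and 2.88 CPM in RH/+ vehicle, 5.35 and 5.98 CPM in RH/RQ vehicle and 4.94 and 4.03 CPM in treated RH/RQ libraries, and the 3 groups did not overlap. Kcnk2 rose by 0.95 in RH/RQ vehicle (SE 0.18, limma adjusted p = 0.00205) and by 0.67 in treated RH/RQ hearts (SE 0.18, limma adjusted p = 0.0473), each against RH/+ vehicle, with ratios of mean CPM of 2.30 and 1.82. Treated and vehicle RH/RQ differed by -0.28 (SE 0.18, limma adjusted p = 0.562). Without RH/+ vehicle replicate 1 the differences were 0.78 (limma adjusted p = 0.0692) and 0.49 (0.524). The treated call was also lost without treated replicate 1 (0.55, limma adjusted p = 0.258), with edgeR (0.75, adjusted p = 0.0781), with DESeq2 (0.75, adjusted p = 0.108), with TMM factors (0.59, limma adjusted p = 0.085), with the 4 libraries of the comparison alone (0.67, limma adjusted p = 0.05001), with no filter on low values (limma adjusted p = 0.363) and with a pseudocount of 5 (0.35, limma adjusted p = 0.061).

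Kcnk3, the highest member per length, was at 248, 305, 208, 254, 222 and 213 CPM. The treated libraries were below both RH/+ libraries, with a difference of -0.34 (SE 0.11, limma adjusted p = 0.107) that edgeR called at an adjusted p of 0.0449. Per 100 Kcnk3 reads there were 0.826 and 0.945 Kcnk2 reads in RH/+ vehicle, 2.57 and 2.36 in RH/RQ vehicle and 2.22 and 1.90 in treated RH/RQ libraries. Both RH/RQ groups stood above RH/+ vehicle in this ratio. Kcnk1 was at 0.368, 0.501, 0.745, 0.799, 0.0827 and 0.264 CPM, with a difference of -0.60 in treated against vehicle RH/RQ (SE 0.16, limma adjusted p = 0.0599), and treated replicate 1 had only 3 reads. Kcnk6 was between 4.63 and 6.61 CPM and was not called.

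**Figure D4:**
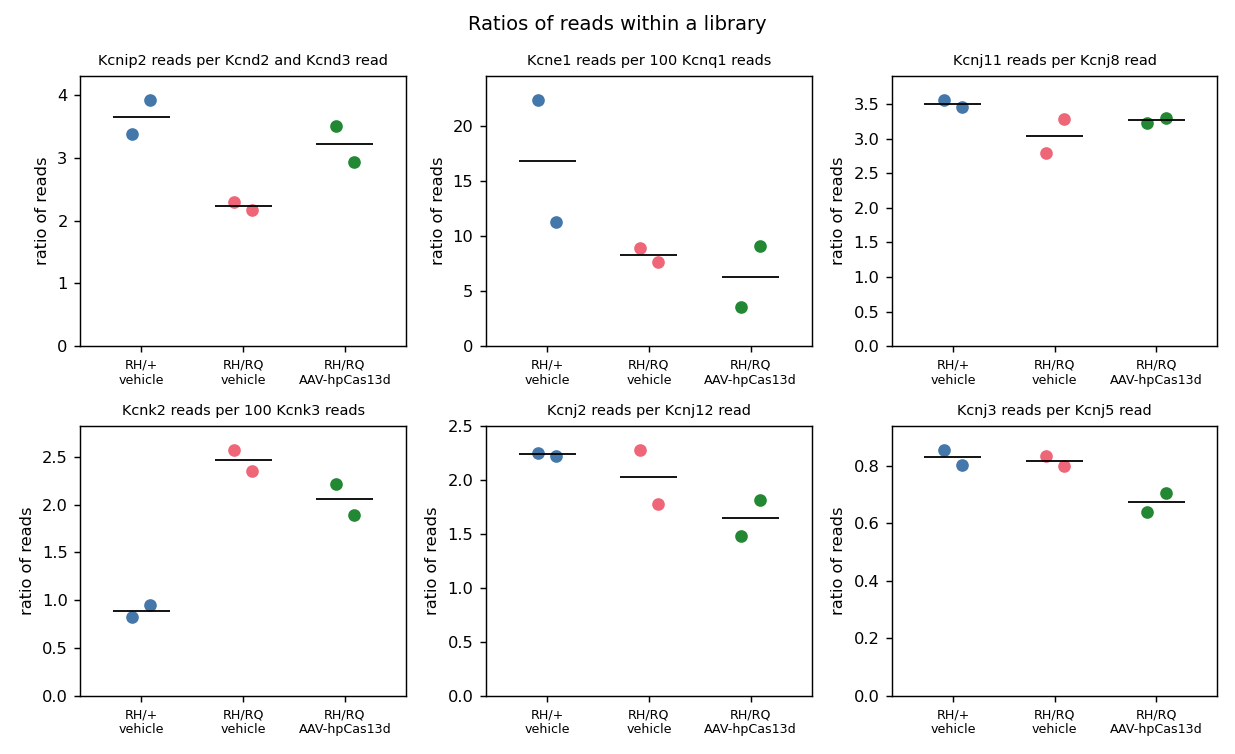
Ratios of reads between genes of the same current or channel within each library, with 1 point per library and a line at the mean of each group. Kcnip2 per Kcnd2 and Kcnd3 read is lowest in RH/RQ vehicle (2.30 and 2.17), and Kcnk2 per 100 Kcnk3 reads is lowest in RH/+ vehicle (0.826 and 0.945).

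Among channels opened by calcium or sodium ions, Kcnn3 fell and Kcnt2 rose. Kcnn3 (chromosome 3, 89520164 to 89675132, plus strand), a small-conductance calcium-activated channel, was at 4.02 and 3.51 CPM in RH/+ vehicle, 2.10 and 1.83 CPM in RH/RQ vehicle and 2.34 and 2.03 CPM in treated RH/RQ libraries. All 4 RH/RQ libraries were below both RH/+ libraries. It fell by 0.68 in RH/RQ vehicle against RH/+ vehicle (SE 0.18, limma adjusted p = 0.0237), and the difference for treated RH/RQ was -0.58 (SE 0.18, limma adjusted p = 0.085). The call was lost without any 1 of the 4 libraries compared, with differences of -0.61 and -0.76 without RH/+ vehicle replicate 1 and 2 (limma adjusted p = 0.247 and 0.0666) and -0.75 and -0.62 without RH/RQ vehicle replicate 1 and 2 (limma adjusted p = 0.0736 and 0.178). Kcnn3 is also known from vessel walls, and among the smooth muscle markers given above Acta2 fell in the same comparison (-1.35, SE 0.12, limma adjusted p = 1.32e-07). The other 7 of the 8 markers were not called there. Cspg4 (0.44), Pdgfrb (0.29), Myh11 (0.12), Tagln (0.10) and Notch3 (0.07) had differences above 0, and Rgs5 (-0.08) and Cnn1 (-0.03) below 0.

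Kcnt2 (chromosome 1, 140246158 to 140612067, plus strand) encodes a sodium-activated channel. It was at 4.75 and 4.58 CPM in RH/+ vehicle, 7.19 and 6.78 CPM in RH/RQ vehicle and 7.17 and 9.15 CPM in treated RH/RQ libraries, so both RH/+ libraries were the lowest. Kcnt2 rose by 0.68 in treated RH/RQ against RH/+ vehicle hearts (SE 0.17, limma adjusted p = 0.0224), and the difference for RH/RQ vehicle was 0.49 (SE 0.17, limma adjusted p = 0.0945). In the treated comparison 4 of 5 fibroblast markers also rose, beside 2.33% of all genes. In RH/RQ vehicle against RH/+ vehicle 3 of the 5 rose, beside 3.48% of all genes. Whether they had a part in the Kcnt2 call was not tested. The call was lost without RH/+ vehicle replicate 1 (0.71, limma adjusted p = 0.152), RH/+ vehicle replicate 2 (0.66, 0.127) or treated replicate 2 (0.53, 0.129). The related small-conductance genes were not called, with Kcnn1 between 12.5 and 17.0 CPM and Kcnn2 between 9.80 and 14.2 CPM. Kcnn2 was highest in the treated libraries (14.2 and 12.8 CPM), with a difference of 0.33 from RH/RQ vehicle (SE 0.14, limma adjusted p = 0.334). Kcnma1, the large-conductance calcium-activated pore of smooth muscle, had between 1 and 5 reads in each library and was not tested, and its beta subunit Kcnmb1, which overlaps Kcnip1 on the other strand, was between 1.52 and 2.72 CPM.

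Limma called 47 of the 56 tested members in none of the 3 comparisons. The 31 members that did not pass the filter were 7 of the 12 Kcnq and Kcnh genes, 5 of the 14 inward rectifiers, 5 of the 14 auxiliary genes, 4 of the 7 modulatory genes and 4 of the 11 tandem-pore genes. They also included 2 of the 16 Kcna to Kcnd pores, 2 of the 8 ion-activated genes and 2 of the 5 regulator or non-coding genes. Kcnj6 and Kcnj9, further G protein-gated pores, Kcnq3, a pore of the neuronal M current, and Kcnk9 and Kcnk18 were in this group. In all, 11 members had at most 3 reads in the 6 libraries together. The lowest mean level that passed was 0.212 CPM (Kcnh1) and the highest that did not pass was 0.200 CPM (Kcne1l).

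Of 21 genes listed as partners or regulators of potassium channels, 19 were found by symbol and 18 were tested. Klf15 and Abcc9 fell in RH/RQ vehicle against RH/+ vehicle, and Klf15, Abcc9 and Abcc8 rose in treated against vehicle RH/RQ hearts. Over all genes 1.51% were called lower in the former comparison and 1.22% higher in the latter. None of the 18 was called between treated RH/RQ and RH/+ vehicle by limma, beside 2.86% of all genes. With so few genes, 0 calls does not set the partners apart from that share. The smallest limma adjusted p there was 0.4 (Irx4), followed by 0.433 (Tmem175). Klf15, a transcription factor known to activate Kcnip2 in the heart, was at 40.5 and 42.3 CPM in RH/+ vehicle, 23.2 and 24.7 CPM in RH/RQ vehicle and 53.5 and 41.5 CPM in treated RH/RQ libraries. It fell by 0.76 in RH/RQ vehicle against RH/+ vehicle hearts (SE 0.12, limma adjusted p = 0.000186). In treated against vehicle RH/RQ hearts it rose by 0.95 (SE 0.12, limma adjusted p = 2.45e-05). These were the same directions as for Kcnip2. Whether Klf15 had a part in the Kcnip2 differences was not tested. Lrrc55, which encodes an auxiliary subunit of large-conductance channels, had a difference of -0.66 in RH/RQ vehicle (SE 0.21, limma adjusted p = 0.0716). Irx5, a repressor of Kcnd2 in the ventricle wall, was at 6.64, 8.57, 5.57, 4.69, 7.09 and 9.49 CPM, with no call. The scaffold and trafficking genes Akap9, Dlg1, Cav3, Ank2 and Nedd4l were not called in any of the 3 comparisons, and nor was Amigo1.

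**Figure D5:**
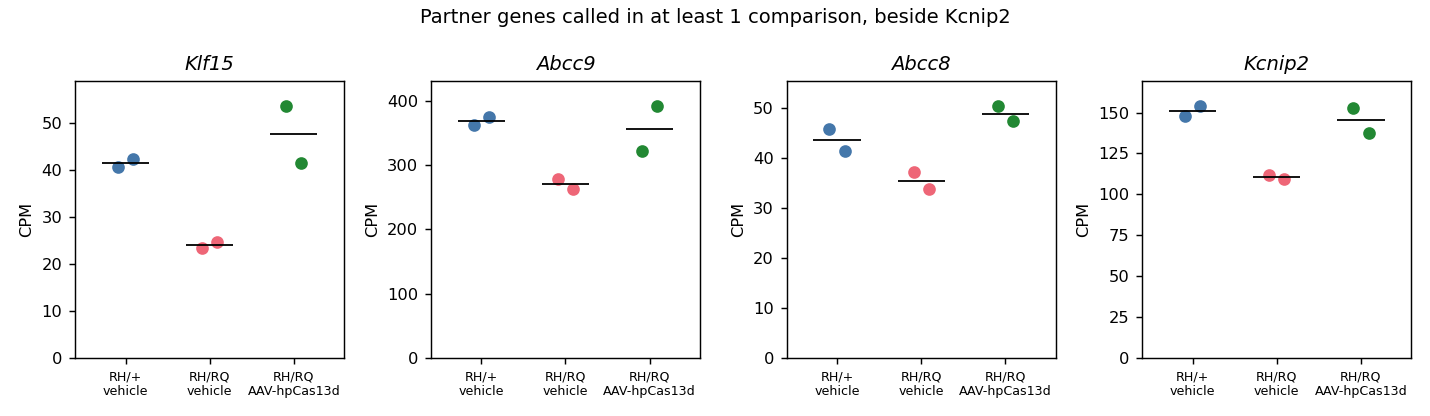
CPM of the 3 partner genes called in at least 1 comparison and of Kcnip2, with 1 point per library, a line at the mean of each group and axes from 0. All 4 genes have their lowest libraries in RH/RQ vehicle.

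The authors' deposited tables gave 9 Kcn genes at an adjusted p under 0.05 for RH/RQ vehicle against RH/+ vehicle, 1 for treated against vehicle RH/RQ and 6 for treated RH/RQ against RH/+ vehicle. Of all genes with an adjusted p in these deposited tables, 6.86%, 1.69% and 2.17% were under 0.05. The 9 were the 8 that edgeR called and Kcng2, and the 1 was Kcna5. For Kcnip2 the authors' deposited tables gave log2 fold changes of -0.50 (adjusted p = 6.43e-07) for RH/RQ vehicle against RH/+ vehicle and 0.34 (adjusted p = 0.0679) for treated against vehicle RH/RQ. The third comparison's 6 in the authors' deposited table were Kcna5, Kcnc1, Kcne1, Kcnj2, Kcnj3 and Kcnk3.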

How the data were processed

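The authors deposited 3 tables of 4 libraries each, whose expression values are CPM, and per the file headers also a mean signal per gene, log2 fold changes with errors, the score of a test, p-values and adjusted p-values. The submitters' processing notes name HISAT2, HTSeq, DESeq2 and mm10. Versions, roles, annotation and strand setting are not given in the sources used here, so reads of overlapping or antisense genes cannot be separated.

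Groups were read from the labels, and 0 sample columns were left over. Divided by what 1 read is worth in its library, the deposited CPM gave whole reads for 100% of values (tolerance 0.001 reads), and these were used as counts. The lowest total gives 0.0827 CPM for 3 reads. No library repeated another of its group, since mean chi-square per gene between replicates was 12.4, 16.6 and 23.7.

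The test was limma 3.58.1 in R 4.3.3 with a trend on log2(CPM + 1), with 3 group means fitted over all 6 libraries so that the spread is shared. The filterByExpr function selected genes at a count minimum of 10, and Benjamini-Hochberg adjustment was over the 16804 genes kept. Alternatives were edgeR 4.0.16 and DESeq2 1.42.0 on the recovered reads, TMM factors, CPM over nuclear genes, no filter, a mean of at least 1 CPM, pseudocounts of 0.1 and 5, only the 4 libraries compared, a replicate block and leaving out each library. The fits were tested on simulated data.

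The members, gene lists and comparisons were chosen with earlier results of these data known. Genes named are those called, the 3 with the smallest p in each comparison, the 15 highest by mean CPM and a list of cardiac current genes. Some genes that this rule would name are not reported here. Others, such as the ratios and the related Kcnc genes, were chosen after their values were seen. Coordinates and exon lengths are from GENCODE M21 on GRCm38, and upstream windows from RefSeq on GRCm38.p6, printed where no annotated exon overlaps them.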

Additional observations from a re-analysis of the deposited data

How the results depend on the processing

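For RH/RQ vehicle against RH/+ vehicle the 5 Kcn calls became 8 with edgeR, DESeq2, TMM factors, the replicate block or the 4 libraries of the comparison alone, and 0 with no filter on low values, where 17 of 87 had an unadjusted p under 0.05. For treated against vehicle RH/RQ the 2 became 1 with edgeR or TMM factors and 0 with no filter (9 unadjusted), and for treated RH/RQ against RH/+ vehicle the 7 became 0 with no filter (13 unadjusted). With no filter, limma called 57, 15 and 7 of all genes against 838, 344 and 480. The cause was not tested. Leaving out 1 library gave 1 to 8, 1 to 3 and 2 to 7 Kcn calls, and 343 to 1156, 134 to 613 and 172 to 703 calls over all genes. For libraries whose titles share a number the correlations of deviations were 0.13, -0.02 and 0.07. With 2 libraries per group these cannot show whether the samples are paired. A replicate block on the shared numbers gave 567 calls over all genes for treated against vehicle RH/RQ. Of the 20 gene-by-comparison results recomputed under these alternatives, 0 changed direction: 239 values kept their side of the threshold, 50 lost a call and 30 gained one. Each of the 20 was called by the main limma test or by an alternative, a choice that favours a steady direction. Uncalled differences near 0 can change sign, as that of Kcnj8 in RH/RQ vehicle against RH/+ vehicle did (0.01 in limma and -0.04 in edgeR). Members under about 1 CPM rest on few reads, and 2 libraries per group limit every comparison.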
